A study of Mus musculus with 4 samples.

Results

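The genes described here are 10 genes of oxygen sensing and of the response to low oxygen, chosen by symbol out of the 32285 genes listed in the files: Hif1a and Epas1, which encode the oxygen-regulated α subunits of hypoxia-inducible factor (HIF-1α and HIF-2α), Egln1, Egln3 and Vhl, which encode proteins that tag those subunits for destruction, and the targets Bnip3, Ndrg1, Ankrd37, Adm and Epo. They were measured by single-cell RNA-Seq in 4 libraries of whole kidney from male C3H mice, with 1 library per condition. WT mice on a normal diet (WT-ND), WT mice on a high-fat diet with 60% of calories from fat (WT-HFD), and mice homozygous for the Sweet Pee (SP) missense mutation of Slc5a2, the gene of the glucose cotransporter SGLT2, on the same diets (SP-ND and SP-HFD) were fed for 8 weeks from 10 weeks of age and killed at 18 weeks of age. SP mice carry the mutation in every cell from birth, so the genotype comparison is that of a lifelong change. The labels do not say how many mice went into a library, and the ND of 2 libraries is read from titles that name no diet.

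Under normal oxygen, the prolyl hydroxylases encoded by Egln1 and Egln3 mark the HIF α subunits, and the VHL protein then recruits a ubiquitin ligase to them. When oxygen falls, the α subunits escape this step, pair with ARNT and bind short DNA sites near their targets, and Egln3 is itself such a target. Most of this control acts on protein, so mRNA of Hif1a or Epas1 is not a reading of HIF activity. The kidney receives much blood but uses much oxygen for salt transport, oxygen falls from the cortex towards the inner medulla, and interstitial fibroblasts of the kidney are the main adult source of the hormone erythropoietin.

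The files held 90728590 to 115117649 UMIs per library, and 34789 cells, 6754 to 10869 per library, passed the limits on genes (200 to 5000) and on mitochondrial UMIs (under 50%). Barcodes at or above that mitochondrial limit made up 32.7% to 33.2% of the WT libraries and 42.1% to 49.8% of the SP libraries. Pairs of libraries shared 54 to 77 barcodes. Cells were put into classes by UMIs of marker genes that hold none of the 10 genes, and a class name here means cells that carried those markers. Undivided classes are those whose cells did not reach the limit for a subclass. Rankings and plots of classes leave out fibroblasts, erythroid cells, unclassed cells and cells with markers of 2 classes. The last made up 16.7% of kept cells of WT-HFD and 8.86%, 7.68% and 6.09% of those of WT-ND, SP-ND and SP-HFD. At least 2 of a class's own markers were among its 10 leading genes in all classes described here but undivided endothelium and undivided proximal tubule, which had 0. The proximal tubule held 38.3% (ND) and 28.7% (HFD) of kept cells of WT kidneys and 20.6% and 13.2% of those of SP kidneys, and the endothelium 7.19%, 6.7%, 11.5% and 13.9%. Levels are CPM, a gene's UMIs divided by all UMIs of the same cells and scaled to 1e+06, pooled per library and class, and all intervals are exact 95% intervals of counting error only. Those UMIs include mitochondrial ones, whose median share per cell ranged by class from 5.77% (vasa recta endothelium) to 33.9% (Cldn10 thick limb). Class levels carry that difference. A pair of values for a genotype gives ND first and HFD second, and 4 values in a row give WT kidneys and then SP kidneys in that way.

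Of the 10 genes, 9 were detected, with 720 UMIs (Egln3) to 145832 UMIs (Ndrg1) in kept cells, and Epo was not. Over all kept cells Hif1a stood at 89.3 and 80.1 CPM in WT and 109 and 112 CPM in SP kidneys. Epas1 stood at 89.6, 89.4, 95.3 and 124 CPM in the same order. The plot of levels by library shows Ndrg1 as the gene with the widest spread in CPM, lower in both HFD libraries, while Adm was higher there than in both ND libraries. In such pooled values fewer cells of a type and less RNA per cell cannot be told apart.

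**Figure D1:**
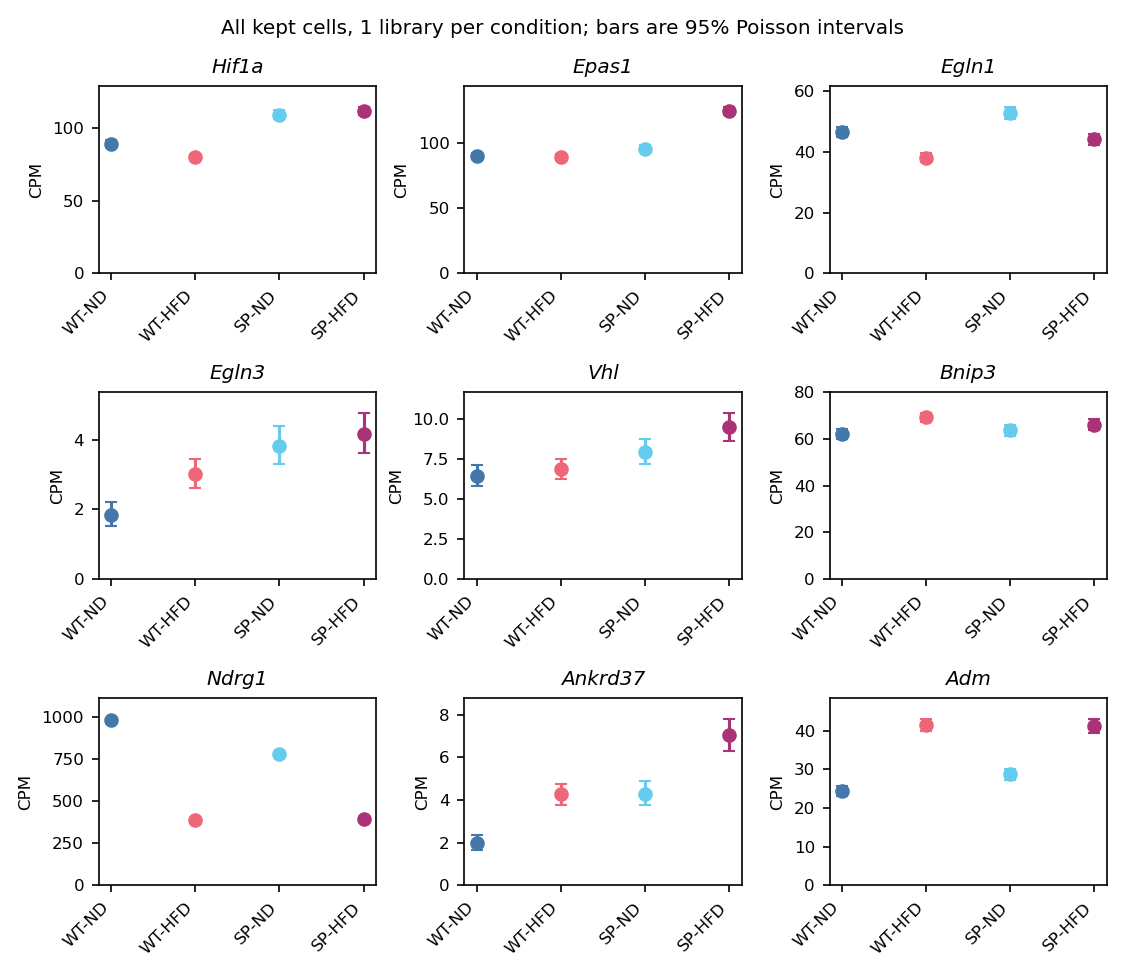
Level of each detected gene (CPM, y axis from 0) over all kept cells of the 4 libraries (x axis), with points for the pooled level and bars for the exact 95% Poisson interval. Ndrg1 lay at 981 and 777 CPM in the ND libraries and at 390 and 395 CPM in the HFD libraries, and Ankrd37 ranged from 1.97 CPM in WT-ND to 7.02 CPM in SP-HFD.

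Hif1a (ENSMUSG00000021109, chr12:73901375-73947530 on the + strand of GRCm38) was most abundant in principal cells, in vasa recta endothelium and in the class of inner medullary thin limb and duct. Principal cells, which take up water and sodium in the collecting duct, had 397 and 343 CPM in WT and 449 and 386 CPM in SP kidneys. Endothelium of the vasa recta, the straight vessels of the medulla, had 274, 358, 304 and 353 CPM, and the class of inner medullary thin limb and duct had 314, 353, 280 and 323 CPM. These 3 classes overlapped each other over the 4 libraries, and all their values lay above those of every other class, of which the connecting tubule came next with 165 ± 37.9 CPM (mean ± SD, n = 4 libraries). Proximal tubule cells, which reabsorb most of the filtrate, were among the lowest for Hif1a, with 38.7 ± 7.57 CPM in early and 40.1 ± 14.0 CPM in late cells, whose ranges overlapped. In the plot of both α subunits, Hif1a spreads along the nephron while Epas1 falls into 2 separate sets of classes.

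Epas1 (ENSMUSG00000024140, chr17:86753700-86833410, +) was highest in vessel classes in these libraries. Glomerular endothelium had 1136 and 1006 CPM in WT and 1088 and 1017 CPM in SP kidneys, the highest level of any class, with no overlap with the next. Vasa recta endothelium followed with 819 ± 202 CPM, mural cells (smooth muscle, pericytes and renin cells) with 688 ± 121 CPM and undivided endothelium with 650 ± 71.6 CPM, and the ranges of these 3 overlapped. Every other ranked class had at most 62.7 CPM in any library, with intercalated cells, which secrete acid or base, at 40.5 ± 7.72 CPM. Of the classes left out of the ranking, fibroblasts (50 cells) had 149 and 341 CPM in WT and 216 and 484 CPM in SP kidneys. These values rested on 10, 36, 19 and 26 UMIs. Erythroid cells (31 cells) had 67.0 to 627 CPM, on 13 and 23 UMIs in WT and 1 and 5 UMIs in SP kidneys. Unclassed cells had 216 and 142 CPM in WT and 110 and 260 CPM in SP kidneys, on 236 to 869 UMIs per library. Cells with markers of 2 classes had 107, 72.3, 76.5 and 61.7 CPM. Both thus lay between the vessel classes and the other ranked classes, or near the top of the latter. The endothelium held 47.9% to 61.8% of all Epas1 UMIs in kept cells.

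**Figure D2:**
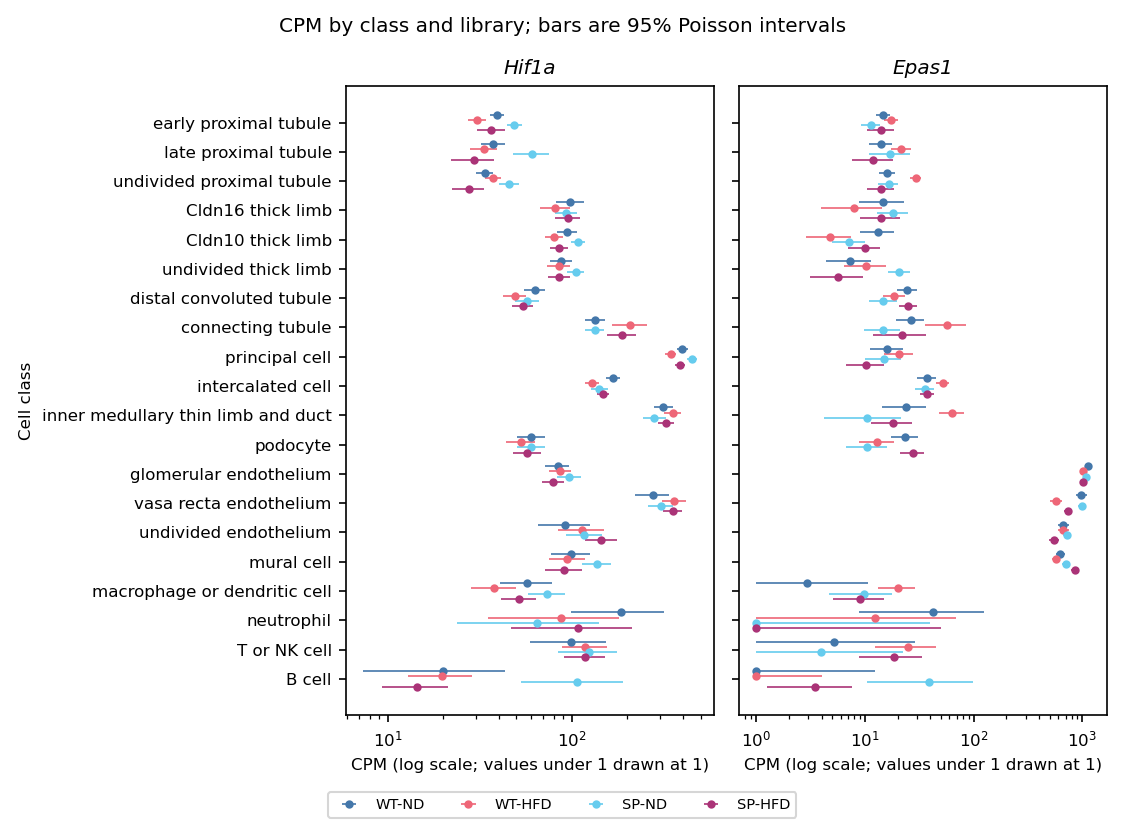
CPM of Hif1a (left) and Epas1 (right) on a log x axis in each cell class (y axis), with 1 point per library and bars for the exact 95% Poisson interval, and values under 1 drawn at 1. The 4 points of principal cells lie between 343 and 449 CPM for Hif1a, and those of the glomerular endothelium between 1006 and 1136 CPM for Epas1.

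The sensors and the ligase subunit had 3 different patterns. Egln1 (ENSMUSG00000031987, chr8:124908587-124949324, -), the main oxygen sensor, ranged over most classes from 69.2 ± 6.07 CPM in vasa recta endothelium to 35.9 ± 9.81 CPM in undivided proximal tubule. It was lower in macrophages or dendritic cells, at 20.6 ± 5.07 CPM, and in B cells, at 17.1 ± 20.95 CPM. Every neighbour in the order overlapped the next down to B cells. Neutrophils had 0 Egln1 UMIs in 199 cells. Egln3 (ENSMUSG00000035105, chr12:54178981-54203860, -) was seen mainly in endothelium and the inner medulla. Undivided endothelium had 45.9 and 36.3 CPM in WT and 54.6 and 37.6 CPM in SP kidneys, and the inner medullary class 17.8, 22.3, 13.4 and 26.6 CPM. In the distal convoluted tubule, the connecting tubule and Cldn16 thick limb, Egln3 had 1 UMI each in all 4 libraries together. Vhl (ENSMUSG00000033933, chr6:113623959-113631633, +) was low in all classes. Its levels were 17.2 ± 3.65 CPM in macrophages or dendritic cells, 15.2 ± 4.26 CPM in vasa recta endothelium and 4.70 ± 0.506 CPM in early proximal tubule, and the 29.8 CPM of neutrophils rested on 10 UMIs.

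Among the targets, Bnip3 (ENSMUSG00000078566, chr7:138890836-138909519, -), which encodes a protein that marks mitochondria for removal, was highest in tubule classes, while podocytes, at 31.4 ± 2.05 CPM, lay among the endothelial classes. It was highest in the inner medullary class, with 105 and 103 CPM in WT and 112 and 105 CPM in SP kidneys, just above and not overlapping the distal convoluted tubule at 92.0 ± 9.45 CPM. The median mitochondrial share of UMIs was 12.35% in the inner medullary class and 31.8% in the distal convoluted tubule. Their order without mitochondrial UMIs was not tested. Endothelial classes had at most 38.8 CPM. Ndrg1 (ENSMUSG00000005125, chr15:66929318-66969640, -), a stress-induced gene linked to cell differentiation, was highest in principal cells, with 1470 ± 397 CPM, and early proximal tubule, with 1385 ± 445 CPM. It was lowest in the inner medullary class, at 77.3 ± 33.6 CPM. So the 2 targets had opposite positions in the inner medullary class, and its Ndrg1 range, 29.0 to 105 CPM, overlapped that of podocytes.

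Ankrd37 (ENSMUSG00000050914, chr8:45996902-46005707, -), which encodes a small ankyrin repeat protein, was rare, with 979 UMIs in kept cells. It was highest in undivided endothelium, where the libraries had 11.5, 34.0, 15.8 and 70.9 CPM. The inner medullary class, with 17.8, 38.3, 22.4 and 31.3 CPM, and vasa recta endothelium, with 9.55, 22.5, 20.4 and 41.2 CPM, overlapped it, and early proximal tubule had 0.865 ± 0.877 CPM. Adm (ENSMUSG00000030790, chr7:110627661-110629820, +), which encodes the vasodilator peptide adrenomedullin, was above all a podocyte gene. Podocytes, the epithelial cells that wrap the glomerular capillaries, had 280 and 609 CPM in WT and 415 and 419 CPM in SP kidneys. The next classes were intercalated cells at 60.1 ± 14.7 CPM, principal cells at 51.5 ± 12.6 CPM and connecting tubule at 37.1 ± 19.0 CPM, each overlapping the next and none overlapping podocytes.

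**Figure D3:**
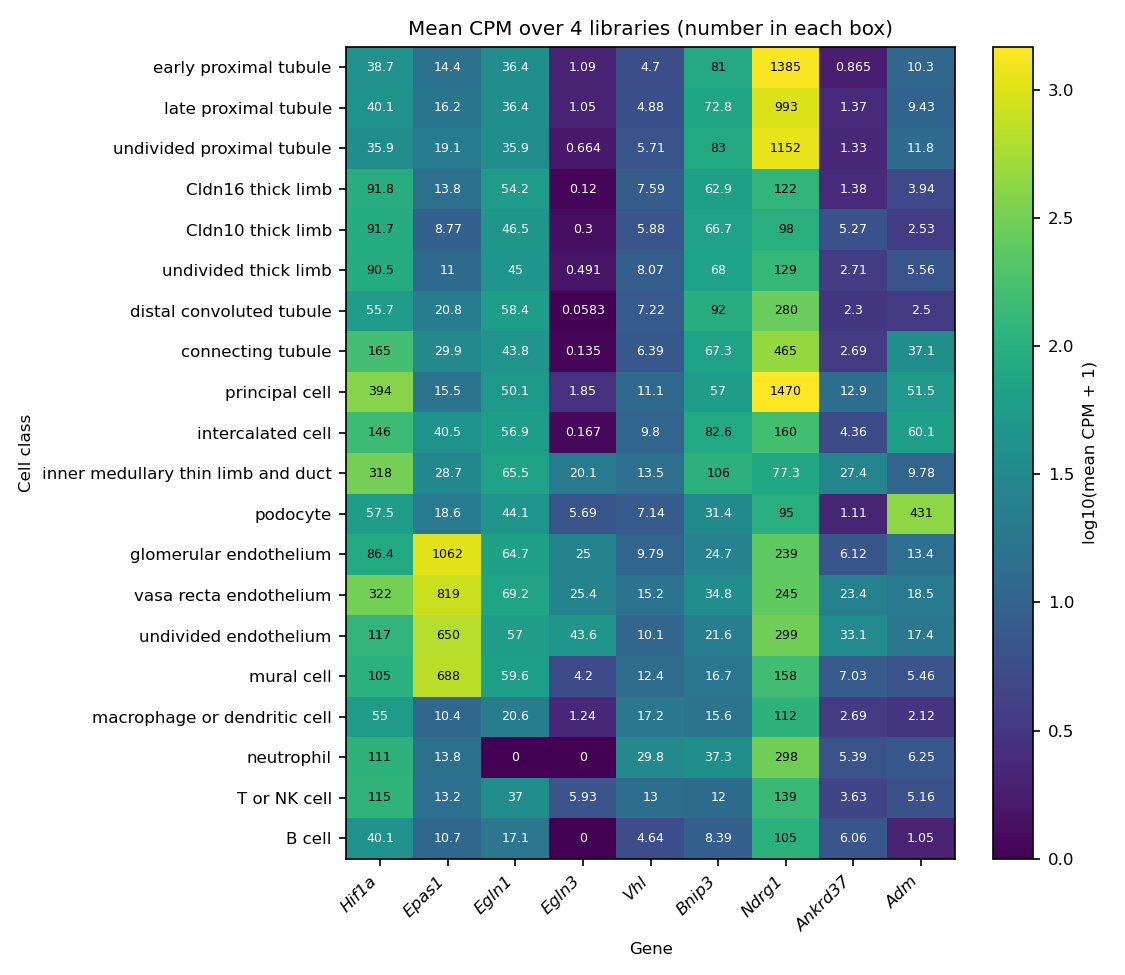
Mean CPM over the 4 libraries of each detected gene (x axis) in each cell class (y axis), printed in each box, with colour for log10(mean CPM + 1). Epas1 is highest in the 3 endothelial classes and mural cells (650 to 1062 CPM) and Adm in podocytes (431 CPM). Ndrg1 is highest in proximal tubule classes and principal cells (993 to 1470 CPM), followed by the connecting tubule (465 CPM).

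Epo (ENSMUSG00000029711, chr5:137483020-137533242, -) had 0 UMIs in 34789 kept cells, which allows a share of up to 0.00862% of cells with a UMI, and 0 in all 58660 barcodes. Only 50 cells met the limits of the fibroblast class, and 0 of 50 allows a share of up to 6%. Any cells with fibroblast markers that missed those limits are not among the 50. Mural cells, 737 in all, also had 0 UMIs. The annotated span of Epo overlaps Pop7 and Gnb2 on its own strand, and how reads shared by overlapping genes were counted is not given in the sources used here. Epo mRNA was not detectable at this depth and with this number of interstitial cells. In the same annotation Hif1a overlaps the protein-coding gene Gm49321 on its own strand over 9878 bases. Epas1 overlaps AC096777.1 on its own strand over 1379 bases. What this did to their counts was not tested. Ankrd37 overlaps Lrp2bp and Ufsp2 on the other strand.

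HIF binds the core letters ACGTG or GCGTG. RefSeq promoters (GRCm38.p6) were matched for 8 of the 10 genes, all but Epas1 and Ndrg1, and the 250 bases before each start were searched on both strands (CACGT and CACGC on the printed strand), counting overlapping matches. The core was present in 7 of the 8 windows, all but that of Vhl, and in 38.6% of the 32851 windows of all genes. Bnip3 had 5 matches and Ankrd37 had 4, a number reached by 2.58% of all windows. Adm had 2 (16.7% of windows had 2 or more) and Egln3 had 1. The windows of these 4 targets are shown, a choice made after their values were seen, because their mRNA carries class or diet differences described below, with every match in capitals (chr7:138909507-138909756 for Bnip3 and chr8:45999851-46000100 for Ankrd37, both -, chr7:110627407-110627656, +, for Adm and chr12:54203875-54204124, -, for Egln3).
Bnip3: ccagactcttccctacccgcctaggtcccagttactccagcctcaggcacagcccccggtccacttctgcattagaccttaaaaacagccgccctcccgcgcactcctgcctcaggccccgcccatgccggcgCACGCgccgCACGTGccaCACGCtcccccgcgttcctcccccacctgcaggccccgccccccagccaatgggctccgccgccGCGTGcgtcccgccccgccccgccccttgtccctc
Ankrd37: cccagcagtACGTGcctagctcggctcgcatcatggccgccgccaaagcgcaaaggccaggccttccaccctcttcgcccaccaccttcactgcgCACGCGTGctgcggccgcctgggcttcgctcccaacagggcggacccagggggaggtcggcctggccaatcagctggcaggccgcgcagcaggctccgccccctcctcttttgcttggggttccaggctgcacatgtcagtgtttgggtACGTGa
Adm: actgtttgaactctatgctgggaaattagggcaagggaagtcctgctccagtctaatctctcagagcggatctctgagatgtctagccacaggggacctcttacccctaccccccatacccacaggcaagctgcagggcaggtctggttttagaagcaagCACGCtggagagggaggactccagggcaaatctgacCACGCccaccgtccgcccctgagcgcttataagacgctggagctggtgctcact
Egln3: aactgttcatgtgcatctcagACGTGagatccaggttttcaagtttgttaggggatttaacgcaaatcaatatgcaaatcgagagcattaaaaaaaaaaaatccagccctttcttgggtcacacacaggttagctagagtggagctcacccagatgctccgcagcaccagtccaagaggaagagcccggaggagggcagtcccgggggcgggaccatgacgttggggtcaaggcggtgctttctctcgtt
The match nearest to the start lay 35 bases before it in Bnip3, 6 in Ankrd37, 54 in Adm and 229 in Egln3. Matches of 5 letters are a description and do not show binding.

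To ask where along the cortex-to-medulla axis the genes differ, neighbouring classes were compared within each library, with the 4 libraries as repeats (edgeR quasi-likelihood test on UMI sums with library as a term, Benjamini-Hochberg over all genes tested). The 4 libraries are 4 conditions, so these p-values measure how steady a class difference was across diets and genotypes. Late proximal tubule cells, from the straight segment that reaches the outer medulla, differed from early cells in 1 of 7 tested genes. Ndrg1 was lower in late cells in 4 of 4 libraries, with 1424 and 455 against 1660 and 850 CPM in WT and 1439 and 653 against 1829 and 1199 CPM in SP kidneys (log2 fold change -0.58, SE 0.13, adjusted p = 0.0138). The call was lost without WT-HFD (adjusted p = 0.0994) and without SP-HFD (0.0641), within a range of 4.22e-07 to 0.661 over 14 alternatives. Hif1a differed by 0.04 (SE 0.11) and Bnip3 by -0.12 (SE 0.11) and were not called. With edgeR, 0 of 7 genes were higher in late cells, and 0 had an unadjusted p under 0.05 in that direction. Of all genes, 6.11% were higher and 5.8% lower in late cells.

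Of 48 other pathway genes, 41 were tested in the proximal tubule, and 3 (7.32%) were higher and 2 (4.88%) lower in late cells, shares near those of all genes (6.11% and 5.8%). The higher ones were Ddit4, an inhibitor of mTOR signalling (1.22, SE 0.23, adjusted p = 0.00350), Tfrc, the transferrin receptor (0.91, SE 0.14, adjusted p = 8.09e-04), and Ak4, a mitochondrial adenylate kinase (0.44, SE 0.08, adjusted p = 0.00443). The lower ones were the glycoprotein hormone gene Stc2, with 3 UMIs in late against 176 in early cells (adjusted p = 9.23e-04), and Car12, a carbonic anhydrase (-0.63, SE 0.09, adjusted p = 4.20e-04). Of the 9 tested genes of glucose and pyruvate use 0 were called by edgeR's test, and 1, Pfkfb4, was under 0.05 before adjustment.

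The thick ascending limb pumps salt and runs from medulla to cortex, and its Cldn10 cells are known mostly from the medulla and its Cldn16 cells from the cortex. Ankrd37 was higher in Cldn10 cells, with 2.78 and 6.07 CPM in WT and 6.59 and 5.65 CPM in SP kidneys against 1.55, 1.45, 1.92 and 0.589 CPM in Cldn16 cells. The 2 groups did not overlap (log2 fold change 1.98, SE 0.45, adjusted p = 0.00135; 0.0773 with DESeq2), but Ankrd37 had 83 UMIs in Cldn10 and 9 in Cldn16 cells. Epas1 (-0.68, SE 0.22, adjusted p = 0.0255) and Ndrg1 (-0.29, SE 0.09, adjusted p = 0.0252) were lower in Cldn10 cells, 98.0 ± 35.9 against 122 ± 33.8 CPM for Ndrg1, and both calls were lost with DESeq2 (0.398 and 0.266), without WT-HFD (0.0691 and 0.255) and without SP-ND (0.391 and 0.117), and that of Epas1 also without SP-HFD (0.0502). So 1 of 8 tested genes was higher and 2 were lower, against 10.5% and 8.64% of all genes.

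Genes of glucose use were called in both directions in the thick limb. Of 37 tested pathway genes, 9 (24.3%) were higher and 5 (13.5%) lower, against 10.5% and 8.64% of all genes. In the list of glucose and pyruvate use 4 of 8 were higher (Eno1, Ldha, Slc2a1 and Tpi1) and 2 lower (Pdk1 and Pfkfb3). The higher genes with the largest differences were Arnt2, a partner subunit of the ARNT family (1.15, SE 0.22, adjusted p = 1.56e-04), Ldha, a subunit of lactate dehydrogenase (1.07, SE 0.13, adjusted p = 7.06e-08), and Mxi1, a MYC antagonist (0.99, SE 0.12, adjusted p = 2.15e-07). The lower genes with the largest differences were Pfkfb3, a regulator of glycolysis (-1.28, SE 0.40, adjusted p = 0.0213), Car12 (-0.73, SE 0.10, adjusted p = 7.44e-07) and Ddit4 (-0.53, SE 0.15, adjusted p = 0.0122).

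Within the endothelium, Hif1a had the clearest difference of all tests of the 10 genes. Vasa recta endothelium had 274, 358, 304 and 353 CPM against 85.0, 90.5, 102 and 92.2 CPM in the other endothelial cells, with no overlap (log2 fold change 1.84, SE 0.10, adjusted p = 7.27e-15, at most 1.11e-07 over 14 alternatives). Ankrd37 was also higher in 4 of 4 libraries, at 23.4 ± 13.1 against 11.4 ± 8.80 CPM (1.05, SE 0.26, adjusted p = 0.00339), a call lost in 2 of 14 alternatives, with all class sums in 1 fit (0.0639) and with no library term (0.164). The other endothelial cells pool the glomerular class, at 6.12 ± 4.34 CPM of Ankrd37, and the undivided class, at 33.1 ± 27.1 CPM. The mean of the undivided class was above that of vasa recta endothelium, with overlapping ranges. Bnip3, at 34.8 ± 6.01 against 24.0 ± 4.08 CPM, was higher by 0.57 (SE 0.20, adjusted p = 0.0469), and its call was lost in 12 of 14 alternatives, among them the omission of each library in turn. Epas1 was at 819 ± 202 against 979 ± 57.9 CPM and was not called (-0.26, SE 0.09, adjusted p = 0.0586), though 7 of 14 alternatives called it lower, among them those without WT-ND (0.0430) and without SP-ND (0.0113). Of 9 tested genes 3 were higher and 0 lower, against 8.85% and 9.07% of all genes, and 0 were lower with DESeq2 as well, while Epas1 had an unadjusted p of 0.0109.

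Genes of glucose use were higher in vasa recta endothelium as well, with 7 of 8 tested called (Aldoa, Eno1, Ldha, Pdk1, Pgk1, Slc2a1 and Tpi1). Of all 41 tested pathway genes 11 (26.8%) were higher and 3 (7.32%) lower, against 8.85% and 9.07% of all genes. The share of lower genes was thus under that of all genes. The higher ones were led by Pdk1, which limits entry of pyruvate into mitochondria (1.31, SE 0.21, adjusted p = 1.53e-05), Cited2, a competitor for HIF coactivators (1.06, SE 0.16, adjusted p = 9.23e-06), and the glucose transporter Slc2a1 (1.05, SE 0.22, adjusted p = 4.65e-04). The lower genes were Lox, a collagen cross-linking enzyme with 0 UMIs in vasa recta and 88 in other endothelial cells (at least 5.63-fold lower against a floor of 3 counts over the group, adjusted p = 4.80e-04), the angiogenic factor Vegfa (-2.80, SE 0.28, adjusted p = 2.94e-09) and the repressor Bhlhe41 (-1.95, SE 0.47, adjusted p = 0.00269). Vegfa stands out in podocytes, and the summed CPM of 5 podocyte markers was 445 to 680 in vasa recta and 859 to 967 in other endothelial cells, against 18300 to 19460 in podocytes. The part of that RNA in the Vegfa difference was not tested.

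When 4 medullary classes (late proximal tubule, Cldn10 thick limb, inner medullary thin limb and duct, vasa recta endothelium) were set against 6 cortical ones (early proximal tubule, Cldn16 thick limb, distal convoluted tubule, connecting tubule, podocyte, glomerular endothelium), each weighted alike, 4 of 9 genes were higher and 2 lower, against 14.5% and 17.4% of all genes. CPM pairs of this contrast are plain means over the classes, and the log2 fold changes come from the edgeR fit. The ratio of such a pair is thus not the fold change. Hif1a had a mean of 193 ± 11.3 CPM over medullary and 82.6 ± 2.53 CPM over cortical classes, with no overlap (0.83, SE 0.07, adjusted p = 1.50e-12). Ankrd37 had 14.4 ± 5.37 against 2.41 ± 0.697 CPM (1.98, SE 0.25, adjusted p = 4.08e-08) and Egln3 11.7 ± 1.28 against 5.35 ± 1.76 CPM (1.75, SE 0.41, adjusted p = 9.14e-04), again with no overlap. Bnip3 had 70.1 ± 3.36 against 59.9 ± 5.07 CPM, also without overlap (0.18, SE 0.06, adjusted p = 0.0256). Adm was lower, at 10.1 ± 2.16 against 83.0 ± 24.8 CPM (-1.10, SE 0.21, adjusted p = 8.93e-05), as was Ndrg1, at 353 ± 149 against 431 ± 108 CPM (-0.55, SE 0.10, adjusted p = 5.75e-05). Epas1 (0.16, SE 0.15), Vhl (0.22, SE 0.15) and Egln1 (0.01, SE 0.08) were not called. Undivided endothelium, the highest class for Egln3 (43.6 ± 8.50 CPM) and Ankrd37 (33.1 ± 27.1 CPM), was in neither group. Principal cells, the highest for Hif1a, were also in neither. Egln3 was at 25.4 ± 3.52 CPM in vasa recta and 25.0 ± 9.46 CPM in glomerular endothelium. The contrast with the omitted classes placed was not tested.

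Some of these differences rest on 1 class. Without podocytes Adm was no longer called (-0.22, adjusted p = 0.496), and without the inner medullary class the Ndrg1 difference was 0.01 (adjusted p = 0.996). Egln3 lost its call without the inner medullary class (0.99, adjusted p = 0.0901) and without vasa recta endothelium (0.92, adjusted p = 0.0949). Bnip3 was at -0.04 (adjusted p = 0.700) without podocytes and at -0.13 (0.108) without glomerular endothelium, and also lost its call without WT-ND (0.183), without WT-HFD (0.0703) and without SP-HFD (0.107). Epas1 was higher in the medullary classes without glomerular endothelium (1.06, adjusted p = 2.20e-06) and lower without vasa recta endothelium (-1.15, adjusted p = 6.24e-07). Hif1a (0.53 to 0.92) and Ankrd37 (1.54 to 2.28) were called under all 16 alternatives. Among the medullary classes Hif1a was high in the inner medullary class (318 CPM) and vasa recta endothelium (322 CPM). It was at 40.1 CPM in late proximal tubule and 91.7 CPM in Cldn10 thick limb, near the 38.7 CPM of early and 91.8 CPM of Cldn16 cells. Position and cell type cannot be told apart in this contrast. The plot of the class contrasts shows Hif1a and Ankrd37 to the right of 0 in the last 2 panels.

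**Figure D4:**
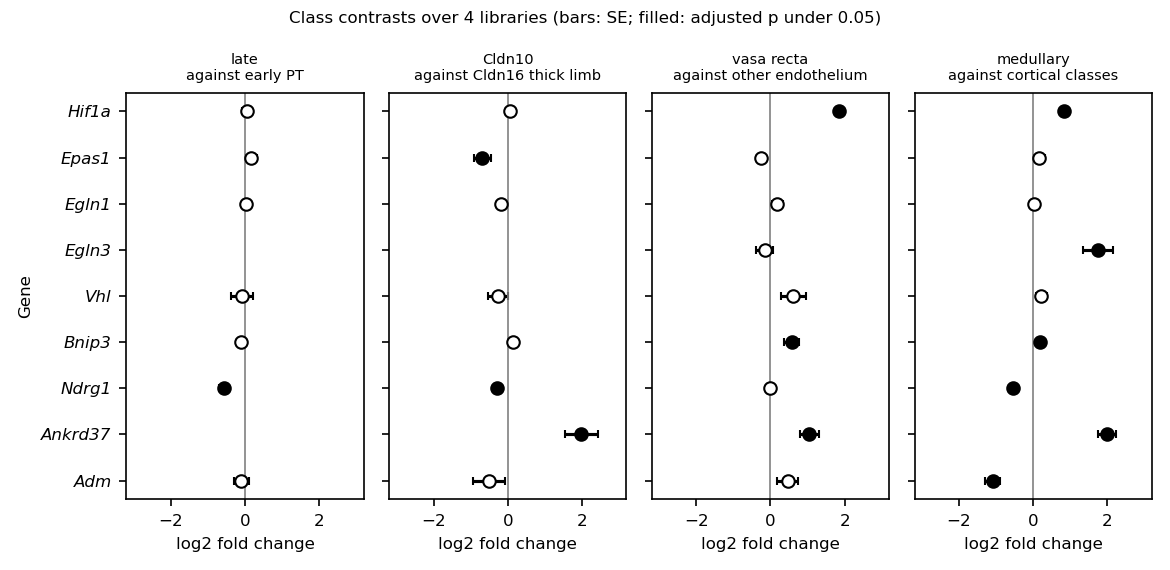
Log2 fold change (x axis) of each tested gene (y axis) in the 4 contrasts of classes over 4 libraries, with bars for 1 SE and filled points for an adjusted p under 0.05. Hif1a lies at 0.04 and 0.05 in the 2 tubular contrasts, at 1.84 in the endothelium and at 0.83 over all classes, and Ankrd37 at 1.98, 1.05 and 1.98 where it was tested.

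Among the pathway genes 44 were tested over all classes, of which 19 (43.2%) were higher and 6 (13.6%) lower in the medulla, against 14.5% and 17.4% of all genes. By list, 5 of 9 tested genes of glucose and pyruvate use and 3 of 6 of the mitochondrial and stress list were higher. So were 4 of 7 of the chromatin, clock and cell cycle list and 3 of 7 of the matrix, iron and pH list. The same held for 3 of 6 vascular genes and 1 of 4 ligase subunits. In the list of sensors and subunits 2 of 5 were lower, the subunit gene Arnt2 and Cited2, which is listed there as a competitor for HIF coactivators. Among the largest differences were those of Cp, the copper protein ceruloplasmin (2.36, SE 0.56, adjusted p = 0.00101), and Cox4i2, a subunit of cytochrome oxidase (1.74, SE 0.47, adjusted p = 0.00409). The lower ones were led by Arnt2 (-1.67, SE 0.26, adjusted p = 3.34e-06), Vegfa (-1.34, SE 0.09, adjusted p = 5.91e-15) and Car12 (-0.99, SE 0.11, adjusted p = 1.21e-09). The median log2 fold change was 0.18 over the 9 genes, 0.12 over the pathway genes and -0.03 over all 12527 genes.

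With 1 library per condition, diets and genotypes were compared as ratios between 2 libraries without a test, and 1.5-fold was used as a limit of size for genes with at least 50 UMIs in the pair. On HFD in WT kidneys, 3 of 9 genes were past it upwards and 1 downwards, against 8.28% and 4.49% of all 15161 genes. Ndrg1 was 2.52-fold lower (log2 ratio -1.33, 95% CI -1.35 to -1.31). Ankrd37 was 2.16-fold higher (95% CI of the log2 ratio 0.80 to 1.43), Adm 1.71-fold higher (0.68 to 0.87) and Egln3 1.64-fold higher (0.38 to 1.06). Egln1 was 1.22-fold lower (-0.37 to -0.22), and Epas1 had a log2 ratio of -0.0027 (-0.06 to 0.05). In SP kidneys HFD gave 1 gene upwards and 1 downwards, against 9.93% and 4.06% of 14962 genes. Ndrg1 was 1.97-fold lower (log2 ratio -0.98) and Ankrd37 1.63-fold higher (0.46 to 0.96), while Adm was 1.43-fold higher (0.42 to 0.62) and Egln1 1.20-fold lower (-0.34 to -0.18). The median log2 ratio of the 9 genes was 0.09 in WT and 0.13 in SP kidneys, against 0.02 and 0.10 over all genes.

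The lower Ndrg1 on HFD was seen in nearly every class. In early proximal tubule it stood at 1660 CPM in WT-ND and 850 in WT-HFD, and at 1829 in SP-ND and 1199 in SP-HFD. In late proximal tubule the values were 1424 and 455 CPM in WT and 1439 and 653 CPM in SP kidneys. Principal cells had 1765 and 976 CPM in WT and 1816 and 1324 CPM in SP kidneys. Of 18 classes with at least 50 cells in every library, 17 had a lower level on HFD in WT kidneys, 14 of them past 1.5-fold, the exception being the inner medullary class at 0.18 (95% CI -0.26 to 0.63). In SP kidneys 17 of 18 were lower, 8 past 1.5-fold, the exception being the distal convoluted tubule at 0.03 (-0.10 to 0.15).

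Immune cells moved the same way. Over T or NK cells, B cells, macrophages or dendritic cells and neutrophils together, Ndrg1 was at 219 and 47.6 CPM in WT and 158 and 50.1 CPM in SP kidneys. The summed level of 6 proximal tubule markers in those same immune cells, which should lack them, was 1185, 350, 541 and 302 CPM. The immune level of Ndrg1 was 22.3%, 12.2%, 20.3% and 12.7% of that over all cells, and that of the tubule markers 24.0%, 8.97%, 18.1% and 13.9%. Tubule RNA found in immune cells was thus higher in the ND libraries, and its part in the Ndrg1 ratios was not tested. In proximal tubule and principal cells the Ndrg1 level was several times the immune level in every library. In WT-ND, podocytes (154 CPM) and the Cldn10 (150 CPM), Cldn16 (169 CPM) and undivided (157 CPM) thick limb lay below the immune level of 219 CPM. Intercalated cells (242 CPM) and mural cells (257 CPM) lay not far above it. All of these are among the classes counted above as lower on HFD.

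Egln1 was lower on HFD in proximal tubule cells, the site of SGLT2, and higher in the distal convoluted tubule. In early proximal tubule it stood at 43.0 CPM in WT-ND and 30.5 in WT-HFD (log2 ratio -0.49, 95% CI -0.70 to -0.29), and at 46.2 in SP-ND and 25.7 in SP-HFD (-0.85, -1.19 to -0.52). In the distal convoluted tubule, the next salt-reabsorbing segment after the thick limb, it stood at 42.2 and 71.3 CPM in WT (0.76, 0.46 to 1.06) and at 50.7 and 69.2 CPM in SP kidneys (0.45, 0.17 to 0.74). It was lower in 10 of 15 classes with enough UMIs in WT and in 16 of 17 in SP kidneys. Bnip3 was higher on HFD in early proximal tubule of both genotypes, at 65.3 and 91.5 CPM in WT (0.49, 0.35 to 0.62) and 69.6 and 97.6 CPM in SP kidneys (0.49, 0.30 to 0.68), which is under 1.5-fold.

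Adm had a log2 ratio of HFD to ND above 0 in 7 of 7 classes with enough UMIs in each genotype, with the interval above 0 in 5 of them in WT and 4 in SP kidneys. Podocytes had 280 CPM in WT-ND and 609 in WT-HFD (1.12, 95% CI 0.98 to 1.26), and 415 in SP-ND and 419 in SP-HFD (0.01, -0.12 to 0.15). Whether the diet ratio differed by genotype was not tested, with 1 library each. In early proximal tubule Adm was low and higher on HFD in both genotypes, 5.83 and 11.1 CPM in WT (0.92, 0.49 to 1.36) and 7.52 and 16.9 CPM in SP kidneys (1.17, 0.64 to 1.69). Principal cells had 49.3 and 61.4 CPM in WT (0.32, -0.06 to 0.70) and 34.5 and 60.6 CPM in SP kidneys (0.81, 0.39 to 1.24).

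**Figure D5:**
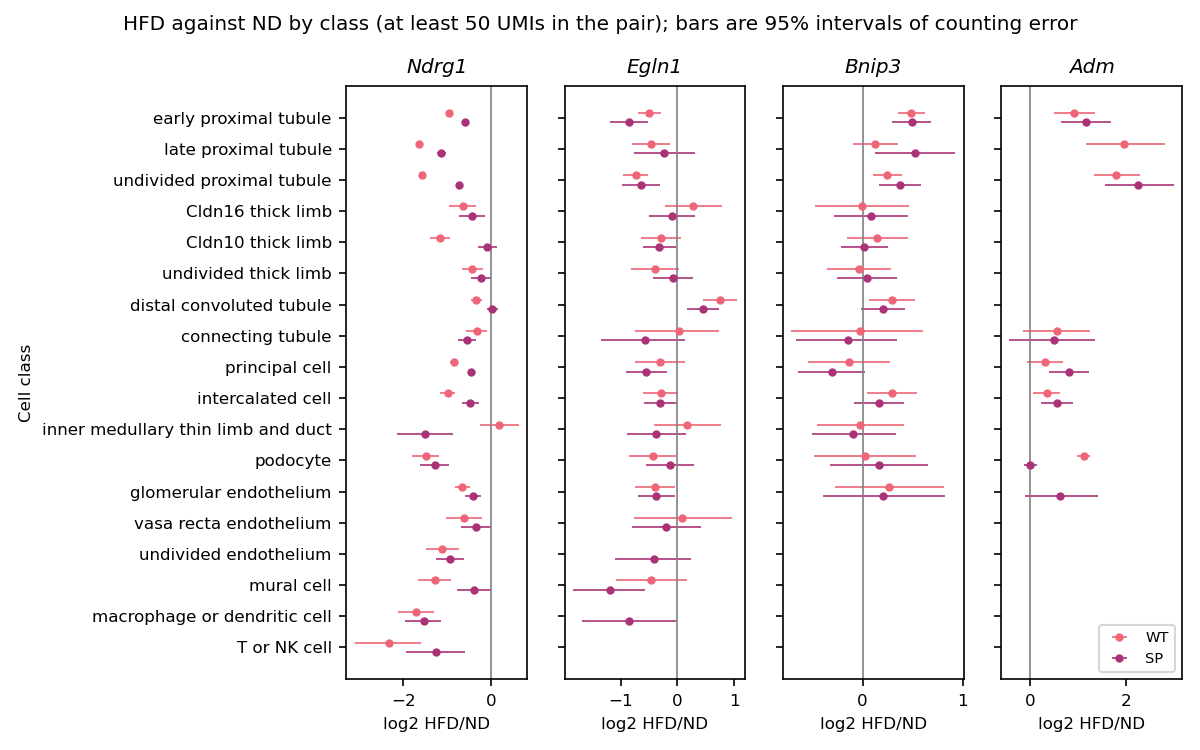
Log2 ratio of HFD to ND (x axis) for Ndrg1, Egln1, Bnip3 and Adm in each class (y axis) of WT (lighter) and SP (darker) kidneys, with 95% intervals of counting error, for pairs with at least 50 UMIs. Ndrg1 points lie left of 0 in 17 of 18 classes in each genotype, Egln1 lies right of 0 in the distal convoluted tubule (0.76 and 0.45), and Adm in podocytes lies at 1.12 in WT and 0.01 in SP kidneys.

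Epas1 of vasa recta endothelium was lower on HFD in both genotypes, at 977 and 574 CPM in WT (-0.77, 95% CI -1.01 to -0.53) and 992 and 733 CPM in SP kidneys (-0.44, -0.61 to -0.27). Glomerular endothelium differed less, by -0.18 (-0.26 to -0.09) in WT and -0.10 (-0.18 to -0.01) in SP kidneys. Undivided endothelium differed by -0.0069 (-0.25 to 0.23) in WT and by -0.39 (-0.58 to -0.19) in SP kidneys. Mural cells had a WT ratio of -0.12 (-0.31 to 0.07) and an SP ratio of 0.27 (0.12 to 0.43), above 0. Hif1a in vasa recta endothelium was at 274 and 358 CPM in WT (0.39, 0.0046 to 0.77) and 304 and 353 CPM in SP kidneys (0.21, -0.07 to 0.50). Undivided endothelium had 5 and 15 Ankrd37 UMIs in WT and 11 and 49 in SP kidneys, and only the SP pair reached 50 UMIs, with a log2 ratio of 2.16 (1.20 to 3.26). In the inner medullary class the WT ratio was 1.10 (0.20 to 2.08) and the SP ratio 0.49 (-0.40 to 1.45).

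Between genotypes on ND, 2 of 9 genes were past 1.5-fold upwards in SP kidneys and 0 downwards, against 7.25% and 4.41% of 14867 genes. Ankrd37 was 2.18-fold higher (95% CI of the log2 ratio 0.80 to 1.46) and Egln3 2.07-fold higher (0.71 to 1.40), while Ndrg1 was 1.26-fold lower (-0.35 to -0.32). On HFD, 1 gene was past it upwards, Ankrd37 at 1.65-fold (0.49 to 0.95), and 0 downwards, against 8.37% and 4.32% of 15201 genes. Hif1a (0.48) and Epas1 (0.48) were higher in SP-HFD by less than 1.5-fold. The median log2 ratio of all genes was 0.10 on ND and 0.20 on HFD, so such values are to be read against that shift. Over 18 classes on HFD, Hif1a had a median ratio of 0.04, with 10 above and 8 below 0. Epas1 on HFD was at 0.02 (-0.06 to 0.10) in glomerular, -0.27 (-0.50 to -0.05) in undivided and 0.35 (0.15 to 0.56) in vasa recta endothelium. In mural cells it was at 0.57 (0.40 to 0.74). With each class weighted alike Ankrd37 differed by -0.03 on HFD and Egln3 by 0.55 on ND. The share of endothelium, where both genes were highest, differed between these libraries as given above, and its part was not tested. On HFD, Ankrd37 was at 1.39 (0.53 to 2.33) in principal cells, 1.06 (0.20 to 2.00) in undivided endothelium and -0.29 (-0.98 to 0.40) in the inner medullary class. On ND, Egln3 was at 13.6 CPM in WT and 34.7 CPM in SP glomerular endothelium, and at 45.9 and 54.6 CPM in undivided endothelium. The genotype comparisons share libraries with those of diet.

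Of 47 other pathway genes with enough UMIs, 2 (4.26%) were past 1.5-fold upwards and 2 downwards on HFD in WT, against 8.28% and 4.49% of all genes, and 3 (6.38%) and 2 in SP kidneys, against 9.93% and 4.06%. Between genotypes the counts were 2 and 2 on ND, against 7.25% and 4.41%, and 3 and 1 (2.13%) on HFD, against 8.37% and 4.32%. The downward shares on ND and in both diet comparisons were thus near those of all genes. Bhlhe41 (log2 ratio 0.92 in WT and 1.56 in SP kidneys) was higher and Angptl4, an inhibitor of lipoprotein lipase (-1.25 and -0.97), was lower on HFD in both genotypes. Car9, a carbonic anhydrase, was lower on HFD in WT kidneys (-1.14), and in SP kidneys Jmjd6 was higher (0.67) and Tfrc lower (-0.71). In SP against WT kidneys on ND, Ddit4 (0.90) and Cox4i2 (0.80) were higher and Car9 (-0.91) and Bhlhe41 (-0.64) lower. On HFD, Pfkfb3 (0.97), Cp (0.81) and Ddit4 (0.59) were higher and Ak4 (-0.70) lower.

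The genes most like each of the 10 in their pattern were found by Pearson's r of log2(CPM + 1) over 81 class sums of 21 classes, among 14903 genes. The sums share libraries and differ in depth, so r is a description across classes. Epas1 was most like Gng11 (0.926), Gja4 (0.916) and Rhoj (0.908), all known from endothelium. Hif1a was less closely matched, by Nfat5 (0.764), the tonicity-responsive factor of the medulla, Ubl3 (0.739) and Purb (0.733). Egln3 was nearest to Tead4 (0.874) and Bnip3l (0.858), a paralogue of Bnip3, and Bnip3 to Slc25a16 (0.882), Pcbd1 (0.881) and the pyruvate carrier gene Mpc2 (0.868). Ndrg1 was nearest to Idh1 (0.839), Adm to Tmem150c (0.778) and Ankrd37 to Prrg1 (0.699). Among the 10 genes themselves, Egln3 had r of 0.690 with Epas1 and 0.616 with Ankrd37.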

How the data were processed

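Whole-kidney single-cell libraries were made with the 10x 3′ v3.1 kit. The authors deposited UMI counts per gene and barcode, not normalized. The submitters' processing notes name Cell Ranger 2.1.1 and mm10, and the file headers name Cell Ranger 6.1.2. The study predicted doublets with scDblFinder and by hand and corrected free RNA with SoupX in its own analysis, and whether either was applied to the deposited counts is not given in the sources used here. Depth was 90728590 to 115117649 UMIs per library.

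Cells were kept by the limits of the study's methods (200 to 5000 genes, under 50% mitochondrial UMIs). A cell took a class from its marker UMIs: each marker's share of UMIs was divided by the mean of its top 200 cells, and the mean over markers had to reach 0.1, with at least 2 markers and 3 marker UMIs. Cells whose second class scored over 0.5 of the first (3555 cells, 1618 of them in WT-HFD) were set aside, which also treats doublets, and 3987 stayed unclassed. The cells set aside were led by S100g, Slc8a1, Calb1 and Trpv5, which also led the connecting tubule class. That class kept 303 and 107 cells in WT and 262 and 110 in SP kidneys, and how many of its cells were set aside was not tested. The study describes injured proximal tubule cells, mostly from WT-HFD, that also expressed the thick limb genes Slc12a1 and Umod. Whether such cells were among those set aside, and so missing from the proximal tubule levels, shares and diet ratios, was not tested. Of all cells, 2014 lay near the limit. Subclasses needed a score of at least 2 times the other's. These limits were set after the counts were seen, without the 10 genes. The 10 genes, the lists and the named genes were chosen with earlier results of these data known. Named genes are the 10 members and, per comparison and direction, at most 3 pathway genes with the largest fold past its rule, and for likeness the 3 highest r. The values of 1 pathway gene that this rule names are not reported here.

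Class sums were tested with edgeR 4.0.16 (glmQLFit, glmQLFTest, TMM, filterByExpr, library as a term) in R 4.3.3, with adjusted p under 0.05 as the call. Libraries were compared by CPM with exact Poisson intervals and conditional binomial intervals of ratios, which cover counting error only, with no test. Alternatives were DESeq2 1.42.0, other scalings, filters, gates, free RNA subtraction, and libraries or classes left out. Both methods were run on simulated data. Those for the ratio intervals were Poisson counts without variation between mice or libraries, so they cannot show how the intervals cover such variation. Tables were made in Python 3.11.15 (pandas 2.3.3, scipy 1.17.1, numpy 2.4.6), and plots with matplotlib 3.10.9. Gene coordinates are from GENCODE vM21 (GRCm38), matched by Ensembl identifier.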

Additional observations from a re-analysis of the deposited data

Results flagged for a closer look

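Epas1 in podocytes differed by diet in opposite directions in the 2 genotypes. HFD differed from ND by a log2 ratio of -0.85 in WT (51 UMIs on ND and 30 on HFD) and 1.38 in SP kidneys (23 on ND and 63 on HFD), with both intervals clear of 0. The summed CPM of 6 endothelial markers in those podocytes came to 43.8 on ND and 33.0 on HFD in WT, and to 40.5 and 75.4 in SP kidneys, against 8457 to 9240 in glomerular endothelium, and its part in the Epas1 values was not tested. Egln3 in glomerular endothelium was also opposite, at 1.17 in WT (29 and 73 UMIs) and -0.71 in SP kidneys (63 and 57 UMIs). The difference between genotypes was not tested in either case, since each condition had 1 library.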

How the results depend on the processing

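In the class tests, the calls of Hif1a in vasa recta endothelium and over medullary classes and that of Ankrd37 over medullary classes held under all alternatives. Of 10 genes, 1 was called between late and early proximal tubule, 3 in each of the thick limb and endothelial contrasts and 6 over all classes. The proximal tubule count was 0 with all class sums in 1 fit and with no library term, and 0 to 1 with a library left out. The thick limb count was 0 with DESeq2 and with no library term, 1 under 30% mitochondrial UMIs, with 2-class cells kept and with all sums in 1 fit, and 1 to 3 with a library left out. The endothelial count was 1 with all sums in 1 fit and with no library term. Leaving out classes, chosen after the results were seen, turned Bnip3 (-0.041 without podocytes, -0.13 without glomerular endothelium), Ndrg1 (0.0074 without the inner medullary class) and Epas1 (-1.15 without vasa recta endothelium). Subtracting 10% free RNA ended the calls of Adm (-1.77, adjusted p = 0.0824) and Egln3 (1.75, adjusted p = 0.107) over medullary classes. Of genes past 1.5-fold, SP-HFD against SP-ND had 2, and 1 under 30% mitochondrial UMIs or with classes weighted alike. SP-ND against WT-ND had 2, and 1 with classes weighted alike. SP-HFD against WT-HFD had 1, 0 with all barcodes, TMM-scaled totals or classes weighted alike (where Ankrd37 was at -0.032), and 3 by the mean over cells. WT-HFD against WT-ND had 4 in the main setting, within 1.5 times of that in all others. The cause was not tested. Ankrd37 and Egln3 rest on few UMIs, which limits their class ratios. No paired analysis was possible because each condition had 1 library and no replicate numbers, but each class test compared classes of the same library.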
